A study of Mus musculus with 10 samples.

Results

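The genes described here are 10 immediate-early genes that are known to be switched on when cells are taken out of a tissue: Fos, Fosb, Jun, Junb, Jund, Egr1, Atf3, Ier2, Zfp36 and Dusp1. They were chosen by symbol, with earlier results of these data known. All 10 were found among the 17279 genes of the deposited table, and all 10 passed the filter on low counts that kept 16949 genes. The libraries came from macrophages of the small intestinal lamina propria, sorted as CX3CR1-GFP+ cells from peeled mucosa 24 h after surgery in mice labelled C57BL6/J. One group had sham surgery and the other had permanent middle cerebral artery occlusion (pMCAO), a model of ischaemic stroke without reperfusion, and each group had 5 libraries titled as biological replicates. Replicate 1 of each group is marked as a pool in its description. The labels name no reporter allele, age, sex or batch, and both groups shared the dissociation, the sort and the low input of 2.0 ng total RNA. The comparison asks whether stroke changed the macrophage transcriptome, and for these genes also how far libraries of one group differed from each other. No library was made from undissociated tissue, so transcripts made in the animal and transcripts made during preparation cannot be told apart.

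Immediate-early genes are transcribed within minutes of a stimulus, without new protein synthesis, from promoters at which factors such as SRF, its ternary complex partners and CREB are already bound. Their products act in sequence: Fos and Jun proteins pair to form AP-1, which drives later genes, while others, such as tristetraprolin from Zfp36 and the phosphatase from Dusp1, shut the response down. Enzymatic digestion and cell sorting are known triggers, and tissue macrophages are known to respond readily.

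Promoter sequence was examined because most of the members moved together over the libraries, as described below. RefSeq start sites on GRCm38.p6 were used for 8 of the 10 members, and the 250 bases before the start were searched on both strands. The promoters of Egr1 and Ier2 were not searched. The promoters of the 5 members that made up the 5 closest pairs are shown in transcript direction, 5′ to 3′, with matches in capitals.

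Fos, chr12:85473640-85473889, plus strand: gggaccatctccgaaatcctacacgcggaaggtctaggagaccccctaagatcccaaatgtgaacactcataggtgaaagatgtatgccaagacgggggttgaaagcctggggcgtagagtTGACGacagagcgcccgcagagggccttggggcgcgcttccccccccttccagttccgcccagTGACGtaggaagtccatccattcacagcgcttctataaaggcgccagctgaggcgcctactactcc
Junb, chr8:84978749-84978998, minus strand: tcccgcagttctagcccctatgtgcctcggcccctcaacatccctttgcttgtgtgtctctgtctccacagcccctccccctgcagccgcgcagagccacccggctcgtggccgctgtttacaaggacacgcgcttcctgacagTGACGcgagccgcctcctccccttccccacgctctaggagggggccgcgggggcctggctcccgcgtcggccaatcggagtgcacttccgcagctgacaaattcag
Atf3, chr1:191183334-191183583, minus strand: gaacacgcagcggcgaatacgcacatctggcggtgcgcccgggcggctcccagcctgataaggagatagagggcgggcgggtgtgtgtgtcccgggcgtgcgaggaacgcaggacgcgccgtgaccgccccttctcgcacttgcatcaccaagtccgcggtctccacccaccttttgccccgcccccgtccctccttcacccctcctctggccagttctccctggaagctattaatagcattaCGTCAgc
Zfp36, chr7:28379229-28379478, minus strand: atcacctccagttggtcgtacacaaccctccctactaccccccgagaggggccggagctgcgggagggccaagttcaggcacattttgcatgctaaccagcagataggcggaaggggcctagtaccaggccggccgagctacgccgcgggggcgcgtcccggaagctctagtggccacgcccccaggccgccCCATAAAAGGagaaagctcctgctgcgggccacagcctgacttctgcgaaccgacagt
Dusp1, chr17:26508473-26508722, minus strand: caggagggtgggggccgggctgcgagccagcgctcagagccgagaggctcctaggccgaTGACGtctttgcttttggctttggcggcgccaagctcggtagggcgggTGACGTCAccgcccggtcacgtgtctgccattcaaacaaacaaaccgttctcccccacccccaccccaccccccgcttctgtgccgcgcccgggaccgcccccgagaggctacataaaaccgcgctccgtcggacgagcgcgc

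The capitals mark a cAMP response element, CRE (TGACGTCA), its half-site (TGACG), which the full element contains, or a CArG box, the element bound by SRF. The half-site was present in 5 of the 8 promoters, beginning 129 and 66 bases before the start in Fos, 60 bases before it in Fosb, 106 in Junb and 7 in Atf3, where it lies on the other strand, and 191 and 143 in Dusp1. It was found in 17.8% of 32851 promoters of the same length. The full element occurred in Dusp1 alone among the 8, beginning 143 bases before the start, against 1.55% of all promoters. Within these windows the CArG box occurred in Zfp36 alone among the 8, 58 bases before the start, against 1.47% of all promoters. Bases farther before the start were not searched, so sites there would be missed. No AP-1 site (TGANTCA), present in 6.75% of all promoters, was found in these windows. Jun and Jund held none of the 4 motifs in these windows. The window of Jund (chr8:70697489-70697738) lies before the counted gene, which starts at 70698949 in the GENCODE annotation, so the bases next to that start were not searched. Those of Atf3, Zfp36 and Dusp1 lie inside the spans of their GENCODE genes.

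The members together took between 0.633% and 1.22% of all counts of a library. Per kilobase of annotated exon, Fos had the highest level in both groups, 1275 ± 514 CPM per kb in sham and 1157 ± 219 in pMCAO (mean ± SD, n = 5), where CPM are counts scaled to the library total and by TMM factors. Zfp36, Jun and Dusp1 followed in sham at 446 ± 252, 420 ± 111 and 413 ± 187 CPM per kb, and in pMCAO the order of these levels was Dusp1 at 431 ± 105, Zfp36 at 410 ± 177 and Jun at 361 ± 74.1. Egr1 (208 ± 69.2 in sham and 265 ± 40.9 in pMCAO), Atf3 (190 ± 135 and 143 ± 79.0) and Junb (145 ± 75.8 and 96.6 ± 27.2) lay in the middle of the levels per kb. Ier2 (80.2 ± 15.1 and 64.6 ± 17.6), Fosb (37.0 ± 20.6 and 45.9 ± 15.3) and Jund (27.3 ± 27.1 and 22.5 ± 9.82) were lowest. In each group only 2 of the 9 neighbouring pairs in this order of CPM per kb differed by more than the sum of their SDs: Fos above Zfp36 and Ier2 above Fosb in sham, and Fos above Dusp1 and Egr1 above Atf3 in pMCAO.

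**Figure D1:**
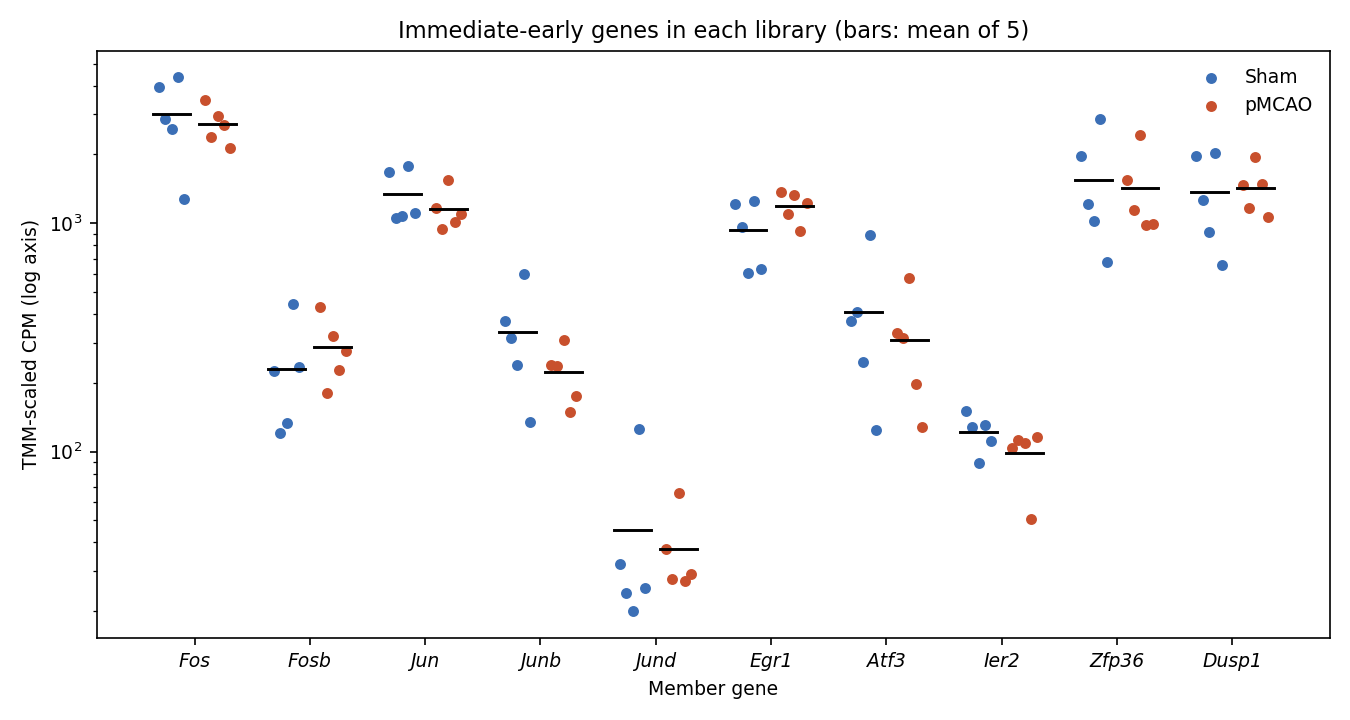
TMM-scaled CPM (log axis) of the 10 members in each library, with 5 sham points in blue and 5 pMCAO points in orange per gene and a bar at each group mean. The groups overlap for every member, and the single high sham point of Jund (126 CPM, Sham 4) lies far above the other 4 sham libraries.

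None of the 10 members was called between pMCAO and sham. At an adjusted p of at most 0.05 (edgeR quasi-likelihood test, Benjamini-Hochberg over 16949 genes) 0% of all genes were called, and the smallest adjusted p of any gene was 0.922. At an unadjusted p under 0.05 there were 799 genes (4.71%) and 0 members. Limma-voom also called 0 genes and DESeq2 called 3, none of them a member. DESeq2 gave no p-value for Jund, which could therefore not be called by it. Group values overlapped for all 10 members, while they did not overlap for 0.985% of all genes. Of the members, 3 had a positive and 7 a negative log2 fold change with a median of -0.18, and over all genes 50.6% were negative with a median of -0.0059. Without Sham 4, 7 of the 10 were positive. A p above the threshold does not show that the members were alike, and the 95% intervals below give the differences that remain possible.

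Fos and Fosb encode the Fos partners of AP-1. In Fos, the most abundant member, CPM in Sham 1 to 5 were 3928, 2865, 2584, 4346 and 1272, and in pMCAO 1 to 5 they were 3460.4, 2392, 2949, 2682 and 2127. Sham 5 alone lay below all pMCAO libraries, and Sham 1 and Sham 4 lay above them, so that the sham values enclosed the pMCAO values. The means were 2999 ± 1209.6 and 2722 ± 515 CPM (SD, n = 5), giving a log2 fold change of -0.14 (SE 0.30, 95% interval -0.79 to 0.51, adjusted p = 0.970). The gene lies on chromosome 12 from 85473890 to 85477273 (GRCm38) and has 4 exons.

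Fosb, on chromosome 7 from 19302696 to 19310051, had CPM of 225, 121, 133, 441 and 233 in Sham 1 to 5 and of 429, 180.0, 320.3, 228 and 275 in pMCAO 1 to 5. Its values were highest in Sham 4 and pMCAO 1 and lowest in Sham 2 and Sham 3, a different order from that of Fos. The means were 231 ± 129 and 287 ± 95.2 CPM, and the log2 fold change was 0.31 (SE 0.35, 95% interval -0.44 to 1.07, adjusted p = 0.938). Without Sham 4 the log2 fold change was 0.68 with an unadjusted p of 0.0360 and an adjusted p of 0.708 in the same edgeR fit.

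Jun, Junb and Jund encode the other AP-1 partners, of which JunB and JunD can also restrain growth. Jun CPM were 1672, 1059, 1079, 1772 and 1108 in Sham 1 to 5 and 1167, 947, 1548, 1007 and 1094 in pMCAO 1 to 5. Only Sham 1, Sham 4 and pMCAO 3 stood above the rest, and Jun was the least variable member. Of the 9046 genes with a mean of at least 10 CPM, 63.7% varied more over the libraries on the log2 scale. Its means were 1338 ± 353 and 1153 ± 236 CPM, with a log2 fold change of -0.21 (SE 0.22, 95% interval -0.69 to 0.26, adjusted p = 0.925). The single exon on chromosome 4 (95049034 to 95052222) shares 7.28% of its bases with the antisense gene Junos.

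Junb showed the most negative log2 fold change of the members. Its CPM in Sham 1 to 5 were 375, 316, 239, 601 and 135, and those in pMCAO 1 to 5 were 239.8, 238, 309, 149 and 175. Sham 4 was the highest and Sham 5 the lowest of all 10 libraries, on either side of the pMCAO values. The means were 333 ± 174 and 222 ± 62.5 CPM, with a log2 fold change of -0.58 (SE 0.34, 95% interval -1.32 to 0.16, adjusted p = 0.922). Without Sham 5 it was -0.79 with an unadjusted p of 0.0178 and an adjusted p of 0.921, and without Sham 4 it was -0.27. Junb lies on chromosome 8 from 84974484 to 84978718, and 7.52% of its exonic bases are shared with Prdx2 on the other strand.

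Jund was the member with the lowest level per kilobase. Its CPM were 32.2, 24.1, 20.02, 126 and 25.3 in Sham 1 to 5 and 37.5, 27.8, 65.8, 27.1 and 29.2 in pMCAO 1 to 5. Sham 4 was far above every other library and pMCAO 3 came next, while the other 8 libraries spanned a narrow range. The sham SD of 45.3 CPM was as large as the sham mean of 45.6, against 37.5 ± 16.4 in pMCAO. The log2 fold change was -0.28 (SE 0.50, 95% interval -1.36 to 0.80, adjusted p = 0.957), and without Sham 4 it turned to 0.55 with an adjusted p of 0.716. On chromosome 8 (70698949 to 70700616), 52.6% of the single exon of Jund overlaps the antisense gene Gm11175. The strand setting of the counting is not given in the sources used here, so Jund values are uncertain.

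Egr1 and Atf3 are transcription factors outside the Fos and Jun families, Egr1 a zinc finger protein under the control of SRF and Atf3 a stress-induced repressor of inflammatory genes in macrophages. Egr1 CPM were 1216, 963, 603, 1253 and 628 in Sham 1 to 5 and 1376, 1098, 1327, 923 and 1225 in pMCAO 1 to 5. Sham 3 and Sham 5 lay below all other libraries, and the 3 remaining sham libraries fell among the pMCAO libraries. Egr1 had the most positive log2 fold change of the members, 0.35 (SE 0.24, 95% interval -0.17 to 0.87, adjusted p = 0.922), from means of 933 ± 310.2 and 1190.0 ± 183 CPM.

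Atf3 varied most. Its CPM in Sham 1 to 5 were 374, 410.2, 246, 889 and 125, and in pMCAO 1 to 5 they were 332, 315, 574, 197 and 128. The highest library (Sham 4) was 7.12-fold above the lowest (Sham 5), and both were sham. The means were 409 ± 291 and 309 ± 170.2 CPM, with a log2 fold change of -0.40 (SE 0.49, 95% interval -1.46 to 0.65, adjusted p = 0.944) that was -0.76 without pMCAO 3 and 0.084 without Sham 4. Over the 10 libraries only 7.28% of the 9046 genes with a mean of at least 10 CPM had a larger SD of log2 CPM. Atf3 lies on chromosome 1 from 191170296 to 191218039.

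Ier2 encodes a small nuclear protein of the early response. Its CPM were 150.5, 128, 89.4, 131 and 111 in Sham 1 to 5 and 104, 112, 109, 50.9 and 116 in pMCAO 1 to 5. The other 9 libraries lay between 89.4 and 150.5 CPM, and pMCAO 4 was below them. The means were 122 ± 22.9 and 98.3 ± 26.9 CPM, with a log2 fold change of -0.31 (SE 0.23, 95% interval -0.80 to 0.18, adjusted p = 0.922) that was -0.16 without pMCAO 4. Ier2 has a single exon on chromosome 8 from 84661331 to 84662852.

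Zfp36 and Dusp1 encode the feedback arm: tristetraprolin, which binds AU-rich elements and speeds the decay of Tnf and other cytokine mRNAs, and a phosphatase that inactivates p38 and JNK. Zfp36 CPM were 1972, 1209.8, 1025, 2864 and 674 in Sham 1 to 5 and 1543, 1146, 2443, 986 and 990.1 in pMCAO 1 to 5. Each group had 1 library well above the others, Sham 4 and pMCAO 3, and Sham 5 was lowest. The means were 1549 ± 875 and 1422 ± 614 CPM, with a log2 fold change of -0.12 (SE 0.39, 95% interval -0.96 to 0.72, adjusted p = 0.978) that changed sign to 0.21 without Sham 4. Zfp36 lies on chromosome 7 from 28376784 to 28380253.

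Dusp1, on chromosome 17 from 26505590 to 26562128, had CPM of 1967, 1265, 919, 2037 and 654 in Sham 1 to 5 and of 1463, 1169, 1953, 1486 and 1065 in pMCAO 1 to 5. Sham 1, Sham 4 and pMCAO 3 were again the highest and Sham 5 and Sham 3 the lowest. The means of 1368 ± 618 and 1427 ± 346 CPM were nearly equal, and the log2 fold change was 0.061 (SE 0.31, 95% interval -0.61 to 0.73, adjusted p = 0.989). Its sign turned in 4 of 21 alternatives.

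**Figure D2:**
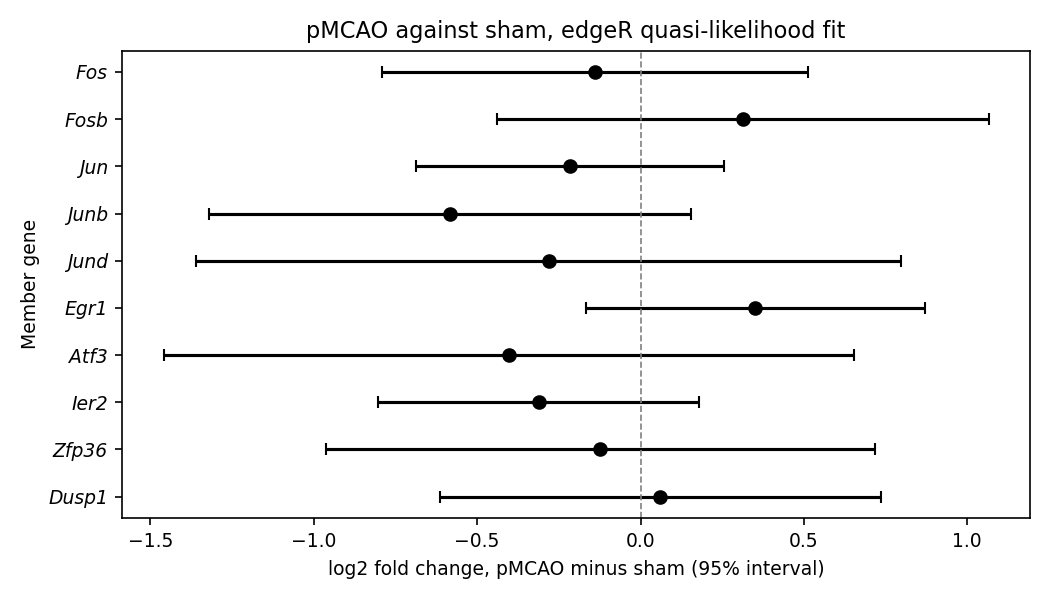
Log2 fold change of each member (pMCAO minus sham) with its 95% interval from the edgeR quasi-likelihood fit, and a dashed line at 0. All 10 intervals include 0, from Junb at -0.58 to Egr1 at 0.35.

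The members varied more between libraries of one group than between the groups. The mean log2 CPM over the 10 members was 8.86 ± 0.62 in sham (range 8.18 to 9.75) and 8.82 ± 0.35 in pMCAO (range 8.48 to 9.33; SD over 5 libraries), a difference of -0.038. It was highest in Sham 4, then pMCAO 3, Sham 1, pMCAO 1, Sham 2, pMCAO 2, pMCAO 5, pMCAO 4, Sham 3 and Sham 5. Sham 4 held the highest value of 8 members, and Sham 5 held the lowest value of 5. In 9 of the 10 members the SD of log2 CPM was larger in sham than in pMCAO, the exception being Ier2, while this was so for 43.4% of all genes. The difference in spread was not tested. Since these are bulk libraries, fewer cells that carry a transcript and less of it per cell cannot be told apart.

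**Figure D3:**
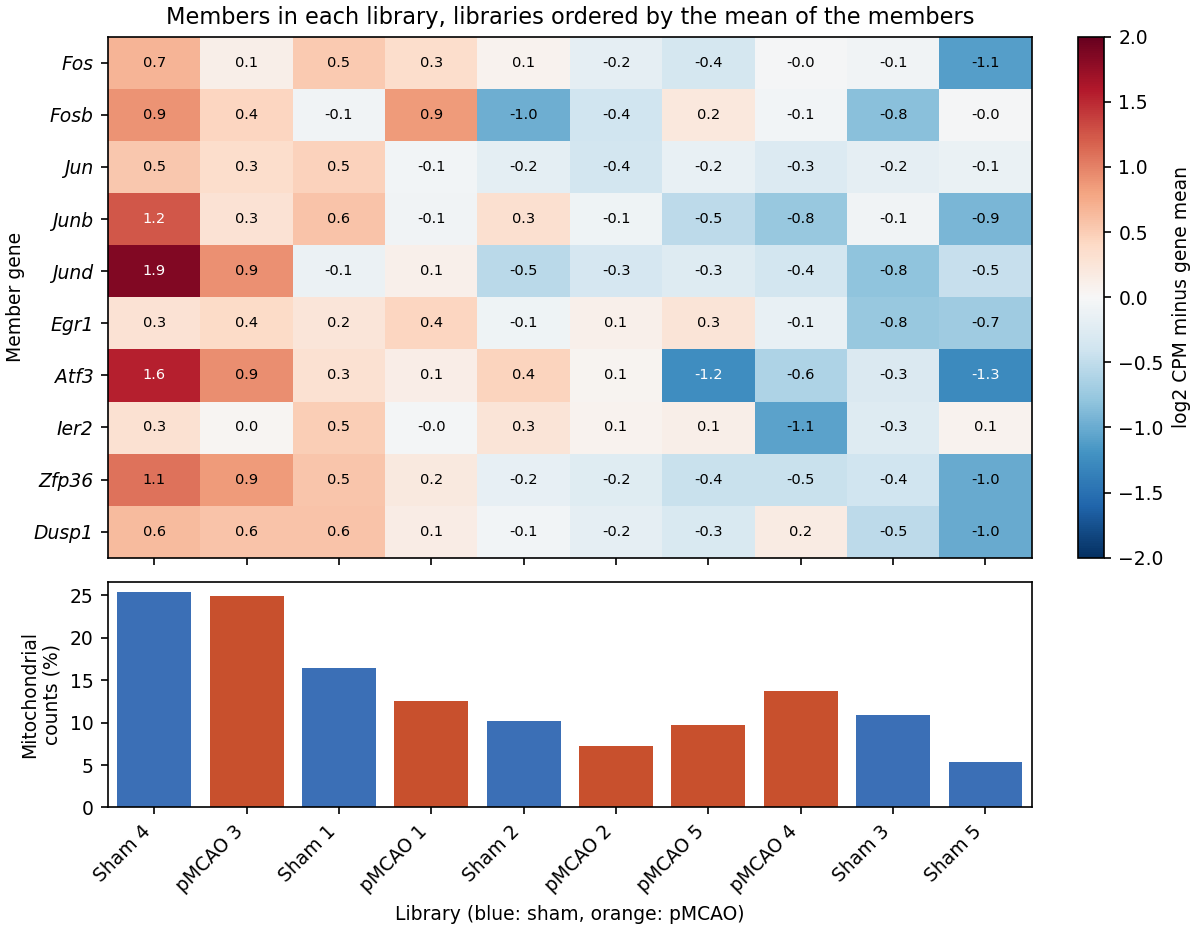
Top, log2 CPM of each member minus its mean over the 10 libraries, with libraries ordered from the highest to the lowest mean of the members. Bottom, mitochondrial transcripts as a percentage of counts (blue sham, orange pMCAO), which is highest in the libraries at the left, Sham 4 (25.3%) and pMCAO 3 (24.9%), and lowest in Sham 5 (5.36%) at the right.

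Over the 10 libraries the members varied together. Pearson correlations of log2 CPM were above 0 in all 45 pairs of members, from 0.094 to 0.92 with a median of 0.64 (jackknife SE 0.090), whereas the median over all pairs of the 9046 genes with a mean of at least 10 CPM was 0.01 (quartiles -0.30 and 0.32). After centring on the group means the median of the members was 0.75. It was 0.46 with total counts in place of TMM scaling and 0.53 without Sham 4 and pMCAO 3. No median over all gene pairs was computed for either of these settings. Without the 2 libraries farthest from the median of the first gene, the pairs ranged from 0.051 to 0.88.

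The closest pairs joined Zfp36, Atf3, Junb, Dusp1 and Fos. Junb and Atf3 had a Pearson r of 0.92 (permutation p = 0.00023, adjusted p = 0.00540 over the 45 pairs) and a Spearman rho of 0.93 (permutation p = 0.00023, adjusted p = 0.00480), and r was 0.82 without Sham 4 and Sham 5. Atf3 and Zfp36 reached an r of 0.91 (p = 0.00024, adjusted p = 0.00540) and a rho of 0.95 (p = 0.00011, adjusted p = 0.00480), with an r of 0.79 without the same 2 libraries. These genes of stress and feedback kept nearly the same order of libraries. For Zfp36 and Dusp1 r was 0.91 (p = 0.00037, adjusted p = 0.00555), rho was 0.79 (p = 0.00869, adjusted p = 0.0391), and r was 0.88 without Sham 4 and pMCAO 3. For Fos and Dusp1 r was 0.89 (p = 0.00050, adjusted p = 0.00562), rho was 0.90 (p = 0.00083, adjusted p = 0.00810), and r was 0.73 without Sham 4 and Sham 5. The fifth pair, Junb and Zfp36, had an r of 0.89 and a rho of 0.93. In all, 17 pairs passed an adjusted permutation p of 0.05 by Pearson's r, 11 by Spearman's rho and 10 by both. The permutation test was not run over all gene pairs, so these counts have no background. An r of at least 0.65 was found in 48.9% of the 45 pairs. Over all pairs of genes with a mean of at least 10 CPM it was found in 5.5%.

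**Figure D4:**
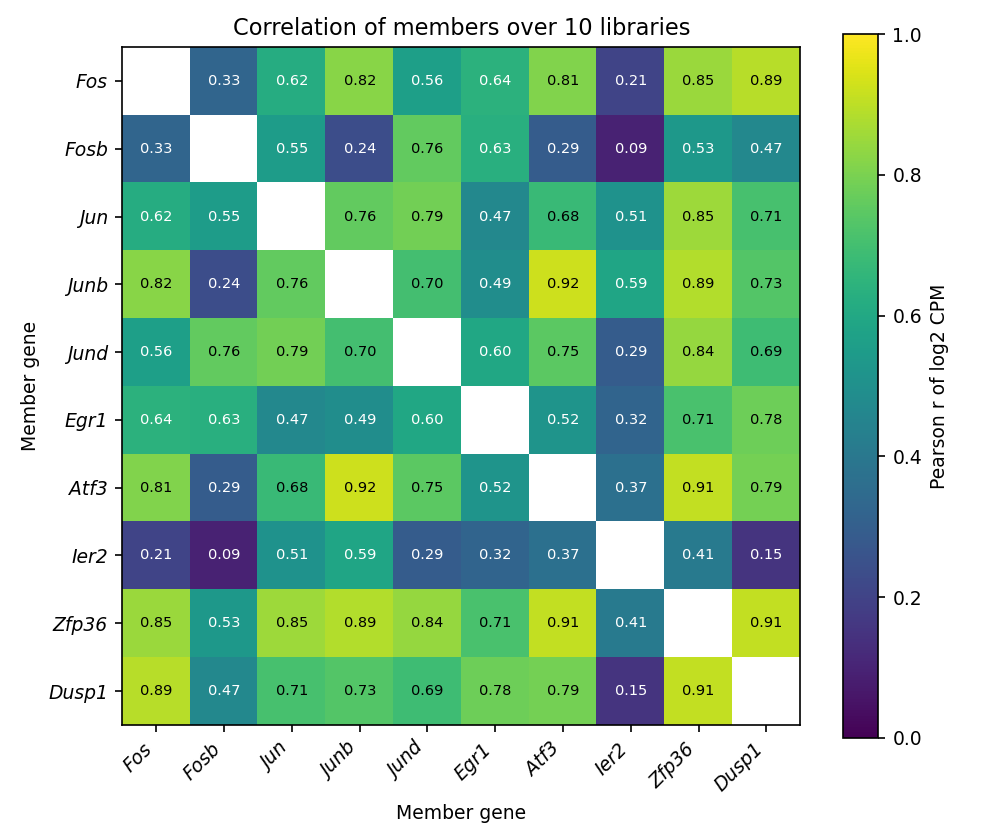
Pearson r of log2 CPM over the 10 libraries for each pair of members, with a colour scale from 0 to 1. Rows and columns of Ier2 and Fosb are the darkest, and the row of Zfp36 is the brightest, with Junb and Atf3 at the highest value of 0.92.

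Zfp36 followed the others most closely and Ier2 least. The correlation of a member with the mean of the other 9 was 0.98 for Zfp36, between 0.80 and 0.86 for Junb, Dusp1, Atf3, Jund, Jun and Fos, 0.70 for Egr1, 0.51 for Fosb and 0.38 for Ier2 (n = 10 libraries). Fosb went with Jund (r = 0.76) and Egr1 (r = 0.63) rather than with Fos (r = 0.33), although Fos and Fosb are family members. Its correlation with Ier2 was 0.094, the lowest of all pairs. Ier2 passed the adjusted threshold with no other member, and its closest partner was Junb (r = 0.59).

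The genes most like the mean of the members came partly from the mitochondrial genome. Among 9036 other genes with a mean of at least 10 CPM, the 10 with the highest r with that mean over the 10 libraries were mt-Nd4 (0.96), Ppp1r15a (0.95), mt-Cytb (0.95), mt-Nd5 (0.94), Ccl3 (0.94), Rabggta (0.94), Ivd (0.94), Plekhg3 (0.93), Baiap2 (0.93) and Cdk9 (0.93). mt-Nd4 and mt-Nd5 encode subunits of respiratory complex I and mt-Cytb one of complex III, Ppp1r15a encodes the stress-induced regulator that restores translation, Ccl3 a chemokine and Cdk9 the kinase that releases paused RNA polymerase II. mt-Nd4 CPM were 3710 in Sham 1, 2993 in Sham 2, 2350.3 in Sham 3, 4674 in Sham 4 and 2307 in Sham 5, and 3059.8, 2904, 4665, 2628 and 2717 in pMCAO 1 to 5. The same libraries, Sham 4, pMCAO 3 and Sham 1, were thus highest as for Zfp36 and Dusp1. At the other end were Skiv2l2 (-0.94), Cab39 (-0.93), Ptp4a3 (-0.92), Kctd20 (-0.92) and Osbpl3 (-0.92). Ppp1r15a CPM ranged from 72.4 (Sham 3) to 218 (Sham 4).

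Library measures moved with the members as follows, each given as a correlation of log2 values over the same 10 libraries without a test. The mean of the members had an r of 0.90 (rho 0.92) with the share of mitochondrial mRNA, which was 2.40% to 3.97% of counts in sham and 2.59% to 4.41% in pMCAO. It was 0.90 without Sham 4 and pMCAO 3, and 0.90 with total counts in place of TMM. For single members this r was highest in Zfp36 (0.92) and Jun (0.90) and lowest in Ier2 (0.48). With mitochondrial rRNA the mean of the members had an r of 0.82, and with total counts, which were 18894151 to 60665972 in sham and 6430643 to 28672285 in pMCAO, it was -0.48. With the TMM factor, 0.842 in Sham 4 and 1.27 in Sham 5, it was -0.77. The CPM of the members were already divided by this factor, so part of that negative r can come from the scaling itself. The part of these measures in the spread of the members was not tested.

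**Figure D5:**
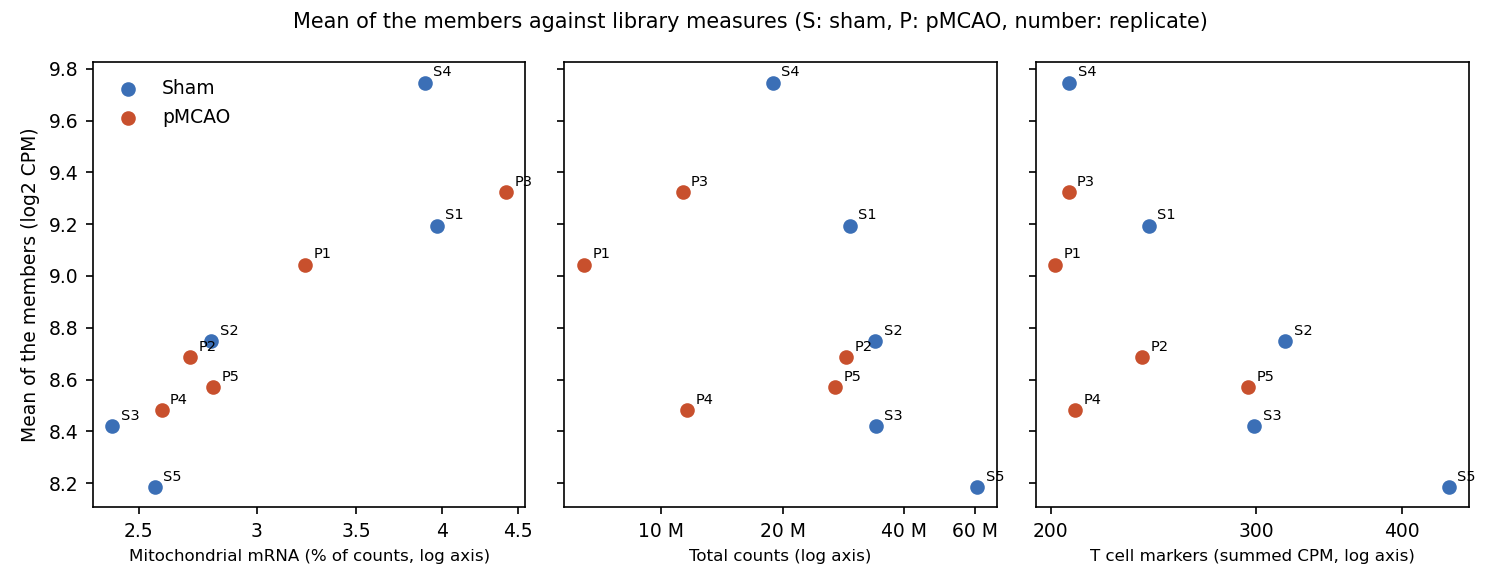
Mean log2 CPM of the members in each library against the share of mitochondrial mRNA, the total counts and the summed CPM of 7 T cell markers, all on log axes (S sham, P pMCAO, number for the replicate). Libraries with more mitochondrial mRNA lie higher (r = 0.90), and Sham 5 has the most counts, the most T cell marker RNA and the lowest mean of the members.

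Markers of the sorted cells were present in every library. The 12 macrophage markers, among them Cx3cr1 and Csf1r, summed to 3534 to 8879 CPM in sham and 4967 to 9993 CPM in pMCAO, lowest in Sham 5, and their r with the mean of the members was 0.51. Plasma cell RNA was abundant: the 8 B and plasma cell markers summed to 5573 to 145531 CPM in sham and 6087 to 167488 CPM in pMCAO, with an r of -0.38. The 7 T cell markers summed to 207 to 439 and 202 to 295 CPM (r = -0.70), with Cd4, which macrophages also express, at 93.2 to 179 CPM, and the 8 stromal and endothelial markers to 54.8 to 102 and 35.3 to 86.7 CPM (r = -0.66). Most of the last sum was Pecam1 (17.3 to 92.9 CPM, r = -0.70), whereas the median r of these 8 genes was 0.32, with the fibroblast genes Col1a1 and Dcn at 0.55 and 0.52. The 5 detected of 6 mast cell and eosinophil markers summed to 1184 to 10732 CPM in sham and 281 to 3628 in pMCAO (r = -0.49), the 13 epithelial markers to 559 to 1379 and 194 to 1853 CPM (r = 0.40), and the 6 dendritic cell markers to 142 to 335 and 212 to 415 CPM (r = -0.27). Of 7 neutrophil markers only Csf3r, which macrophages also express, was among the genes tested (52.3 to 106 and 56.8 to 152 CPM, r = 0.77). Xist, the RNA that silences 1 X chromosome in females, was high in Sham 5 (1756 CPM) and pMCAO 4 (4461 CPM) and at most 4.92 CPM in the others, and without these 2 libraries the median r of the member pairs was 0.68. Leaving out the 2 libraries farthest from the median of a marker sum changed its r with the mean of the members. It became 0.12 for macrophage, 0.22 for epithelial, -0.30 for B and plasma cell and -0.61 for T cell markers. For stromal and endothelial markers it became -0.32, for dendritic cell -0.57, for mast cell and eosinophil -0.10, and for Csf3r 0.68. The part of other cells in the members' levels was not tested.

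Other genes of the early response showed the same order of libraries in part. Of 36 tested among 38 other immediate-early genes, 11 had an r of at least 0.7 with the mean of the members, against 3.94% of all genes, with a median r of 0.53. Besides Ppp1r15a these included Nfkbia (0.93), the NF-kB inhibitor, Klf6 (0.86), Ier5 (0.85) and Rhob (0.85). None was called between the groups, 13 were higher and 23 lower in pMCAO (median log2 fold change -0.17). At an unadjusted p under 0.05 there was 1 gene, Ier3, an early survival gene, at 114 ± 57.1 CPM in sham (40.9 to 188) and 61.9 ± 24.4 in pMCAO (41.8 to 102), with a log2 fold change of -0.87 (SE 0.37, adjusted p = 0.922). Nr4a1, an orphan nuclear receptor, had -0.84 (SE 0.61) and Gadd45b, a stress gene, -0.73 (SE 0.42). Without Sham 4 their log2 fold changes were -0.30 and -0.37, and without pMCAO 2 they were -1.37 and -1.002.

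Most, but not all, of the Zfp36 family and of mRNAs known to be bound by tristetraprolin went closely with the members. Of 14 tested among 16, 11 had an r of at least 0.7 with the mean of the members (median r 0.76), against 3.94% of all genes. These were led by Ccl3 (0.94), Cxcl2 (0.87), Tnf (0.86) and Il10 (0.81). Under 0.7 were Il1a (0.52), Zfp36l2 (0.11) and Il6 (-0.58). Of these 14, 12 were lower in pMCAO with a median log2 fold change of -0.64, none was called, and Ier3, which is also on this list, was the only one at an unadjusted p under 0.05. Il10 CPM were 5.10 to 123 in sham and 10.6 to 54.7 in pMCAO, with a log2 fold change of -1.19 (SE 0.66, adjusted p = 0.922). For Il1b they were 189 to 2525 and 158 to 1064 (-1.003, SE 0.72), and for Cxcl1 1.31 to 108 and 7.75 to 26.9 (-1.15, SE 0.74). The sham ranges enclosed the pMCAO ranges of Il10 and Cxcl1, and without Sham 4 the log2 fold changes were -0.64 for Il10, -0.29 for Il1b and -0.33 for Cxcl1.

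Few partners of AP-1, and none of the kinases and factors upstream, were close to the members. Among 13 AP-1 partners tested, Fosl2 (0.79) and Batf3 (0.74) had an r of at least 0.7 with the mean of the members. None of the 13 was called, and 7 were higher and 6 lower. An unadjusted p under 0.05 was found for 4.71% of all genes and for 4 of the 13. These were Atf2 (log2 fold change 0.51, SE 0.15), Batf (-0.56, SE 0.22), Atf4 (-0.42, SE 0.16) and Jdp2 (0.76, SE 0.33), each with an adjusted p of 0.922 in the edgeR fit. Atf2 CPM were 78.6 to 104 in sham and 105 to 152 in pMCAO and did not overlap, as was so for 0.985% of all genes. Of 25 upstream kinases and factors 0 had an r of at least 0.7 and none was called. In pMCAO 21 of them were higher, with a median log2 fold change of 0.11, while 50.6% of all genes were lower. Mapk8, which encodes the JNK1 kinase of Jun, had CPM of 30.3 to 39.8 in sham and 36.1 to 77.1 in pMCAO (log2 fold change 0.65, SE 0.20, adjusted p = 0.922). Mapk14, encoding p38 alpha, had CPM of 144 to 185 and 186 to 239, which did not overlap (0.37, SE 0.14, adjusted p = 0.922). Atf1, a CRE-binding factor, came after these with 0.31 (SE 0.17) among the genes with a mean of at least 10 CPM.

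Heat shock genes, which digestion at a warm temperature is also known to induce, shared the pattern of the members only in Hspa1a and Hspa1b. They were 2 of 13 tested with an r of at least 0.7 (0.77 and 0.76, median of the list 0.32), against 3.94% of all genes. These 2 genes, named after their values were seen, are near-identical copies whose reads could be split between them, so each value is uncertain. Hspa1a ranged from 46.4 CPM (pMCAO 5) to 864 (pMCAO 3) and Hspa1b from 29.9 (pMCAO 5) to 1463 (Sham 4). Of the 13, 11 were lower in pMCAO (median log2 fold change -0.08), none was called and 0 had an unadjusted p under 0.05. The most negative were Hsph1 (-0.44, SE 0.30), Hspe1 (-0.42, SE 0.22) and Hsp90ab1 (-0.33, SE 0.20), all chaperones.

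Of 9 other dual-specificity phosphatases, relatives of Dusp1, 0 had an r of at least 0.7, 6 were higher in pMCAO (median log2 fold change 0.19) and none was called. Among those with a mean of at least 10 CPM, the most changed in either direction were Dusp5 (-0.69, SE 0.58), Dusp3 (0.35, SE 0.24) and Dusp16 (0.24, SE 0.20). The value of Dusp5 was -0.33 without Sham 2 and -1.46 without pMCAO 2. Glucocorticoid-induced genes were listed because Dusp1 and Zfp36 are also induced by corticosterone, the stress hormone of mice. Of 11 tested, 4 had an r of at least 0.7 with the mean of the members, against 3.94% of all genes. They were Nfkbia (0.93), the metallothioneins Mt1 (0.88) and Mt2 (0.81), and Sgk1 (0.79). Of the 11, 8 were higher in pMCAO (median log2 fold change 0.14) and none was called. The haemoglobin scavenger receptor Cd163 had CPM of 84.6 to 558 in sham and 190.3 to 1265 in pMCAO (log2 fold change 1.01, SE 0.62, adjusted p = 0.922). Its log2 fold change was 0.31 without pMCAO 4, 0.11 without the 2 libraries with Xist and 1.54 without Sham 4. Klf9 (0.58, SE 0.42) and Tsc22d3, encoding GILZ (0.55, SE 0.31), had r values of 0.19 and 0.019 with the mean of the members. The log2 fold change of Klf9 was 0.27 without pMCAO 4 and 1.02 without Sham 4.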

How the data were processed

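RNA sequencing libraries (paired-end, Trio RNA-seq kit with cleavage of ribosomal RNA) were made from 5 sham and 5 pMCAO samples. The submitters' processing notes name GRCm38/mm10, STAR, featureCounts and limma, without versions or strand setting, which are not given in the sources used here. Counts were deposited by the authors as whole numbers for each gene, together with CPM, which are the counts divided by the library total of the table. Every listed gene has at least 10 counts in 2 libraries. The table's log2 fold changes, mean expression, p-values and FDR hold the authors' own comparison and were not used. The paper at hand describes other, epithelial libraries, so no design was taken from it.

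From the counts, genes were filtered with filterByExpr, scaled by TMM and tested two-sided, without covariates, with edgeR 4.0.16 (glmQLFTest, R 4.3.3). Log2 CPM used a prior count of 2. Correlations of member pairs were tested with 100000 permutations in Python (scipy). Gene positions and exonic lengths are from GENCODE M21 on GRCm38. The members and gene lists were chosen with earlier results of these data known. Named genes are the members, the 3 genes of each list with the largest absolute log2 fold change among those with a mean of at least 10 CPM, and the 10 genes with the highest and the 5 with the lowest r with the mean of the members. Others were named after their values were seen (genes past an r of 0.7 or an unadjusted p of 0.05, and those of the tristetraprolin list under that r). A gene that passed the limit on r is not reported here. Alternatives were DESeq2 1.42.0, limma-voom (limma 3.58.1), other scalings, filters and prior counts, a replicate block, and leaving out libraries. Leaving out the 2 Xist libraries, the 2 with the most mitochondrial RNA, or mitochondrial genes was added after seeing the data. In simulated data edgeR recovered 5 of 100 genes changed by 1 and 34 of 83 changed by 2 on the log2 scale, with 0 false calls, and DESeq2 made 27 false calls. No 2 libraries agreed within sampling noise (smallest chi-square divided by its degrees of freedom, 39.2).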

Additional observations from a re-analysis of the deposited data

Results flagged for a closer look

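In Jund, Sham 4 (126 CPM) stood apart from the other sham libraries: its gap to the nearest of them made up 0.742 of the range of the group on the log2 scale, above the limit of 0.71 for 5 samples. pMCAO 3, the next highest library for Jund (65.8 CPM), stayed under that limit in its own group. In Ier2, pMCAO 4 (50.9 CPM) lay below the other pMCAO libraries by a gap of 0.871 of the range. These were 2 of 26 groups looked at (the 10 members, their mean, total counts and mitochondrial mRNA in each group), and chance would give about 1.3.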

How the results depend on the processing

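Members called stayed at 0 in all 21 alternatives, although Jund had no p-value in DESeq2. DESeq2 called 3 genes in all, and every other alternative called 0. The log2 fold changes of Fosb, Jun, Junb, Egr1 and Ier2 kept their sign in all 21. Jund turned to 0.063 with limma-voom, 0.070 with the replicate block and 0.25 without Sham 4 and pMCAO 3. Cxcl1 turned to 0.054 with limma-voom, and Dusp1 to -0.13 without the libraries with Xist. Leaving out 1 library at a time gave ranges from -0.34 to 0.020 for Fos, -0.58 to 0.55 for Jund, -0.76 to 0.084 for Atf3, -0.41 to 0.21 for Zfp36 and -0.12 to 0.24 for Dusp1, the highest values all without Sham 4. The cause was not tested. The number of genes with an unadjusted p under 0.05 ranged from 462 without both pools to 1325 without Sham 4 and pMCAO 3. The median r of the member pairs was 0.46 with total counts only, 0.53 without Sham 4 and pMCAO 3, 0.75 centred on groups and 0.90 with group and replicate block removed. Removing the block leaves few degrees of freedom. No median over all gene pairs was computed for the settings that gave 0.46, 0.53 and 0.90, so these values have no background beside them. Same-numbered libraries did not deviate together in every pair (r of 0.046, 0.34, -0.0055, 0.23 and 0.37, mean 0.197 against -0.045 for other numbers, and 2 of 5 correlated best with their own number), so pairing by number was not established. The block gave 1303 genes with an unadjusted p under 0.05. The r values of the 15 genes most like or unlike the members kept their sign, between 0.83 and 0.99 or between -0.97 and -0.77. The lowest count of a member was 256, that of Jund in pMCAO 1.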
